A study of Mus musculus with 24 samples.

Results

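The adenylyl cyclases, the membrane enzymes that make cyclic AMP, were examined as 8 genes, Adcy1, Adcy2, Adcy3, Adcy5, Adcy6, Adcy7, Adcy8 and Adcy9, taken by symbol from the 30270 gene identifiers in the expression tables. All 8 passed the low-value filter in each comparison. The data were mRNA sequencing libraries of micropunches from the nucleus accumbens (NAc) and the ventral tegmental area (VTA) of 12 mice on a C57BL/6 background, 24 libraries in all. Wild-type (VDR+/+) mice and Vdr-/- mice, which lack the vitamin D receptor in every cell from conception, received either PBS or morphine sulfate (5 mg/kg, intraperitoneal), with 3 mice in each of the 4 combinations and both regions labelled with the same mouse number. The Vdr-/- mice were raised on a diet enriched in calcium and lactose, a diet named for these mice alone, so genotype and diet cannot be told apart. The ages and sexes of the mice were not given in the sources used here. The study's account of the sequencing gives the same interval from injection to tissue collection for PBS and morphine. Its methods for the punches, placed under other assays, give saline mice an interval of their own. If that held for these libraries, injection and interval would differ together.

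Each adenylyl cyclase turns ATP into cyclic AMP, the messenger that activates protein kinase A, and is switched on by the stimulatory G protein alpha subunits Gs and Golf. The isoforms differ in what else they sense. ADCY1 and ADCY8, and under some conditions ADCY3, are stimulated by calcium and calmodulin, ADCY5 and ADCY6 are inhibited by Gi and by calcium, ADCY2 and ADCY7 are stimulated further by G protein beta-gamma subunits, and ADCY9 is a widely expressed isoform with low forskolin sensitivity. In striatal medium spiny neurons, the main cell type of the NAc, ADCY5 carries most of the cyclase activity downstream of D1 dopamine and adenosine receptors. Morphine acts at the mu opioid receptor, which couples to Gi and Go and so lowers cyclic AMP synthesis acutely.

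The members lie on 6 chromosomes (GRCm38, GENCODE M21): Adcy1 at chr11:7063489-7178506, Adcy2 at chr13:68620043-68999541, Adcy3 at chr12:4133103-4213525, Adcy5 at chr16:35154877-35305738, Adcy6 at chr15:98589973-98610076, Adcy7 at chr8:88272403-88329962, Adcy8 at chr15:64697084-64922296 and Adcy9 at chr16:4287529-4420498. Adcy6 lies 0.679 Mb from Vdr itself. Exons of 3 members overlap another gene: Adcy2 overlaps the antisense gene Gm35161 (2 to 57 reads per library), Adcy3 overlaps Cenpo (51 to 205 reads) and Adcy6 overlaps the antisense gene Gm29331 (0 to 1 reads). The strand setting of the counting was not given in the sources used here, so a small part of the reads of Adcy2 and Adcy3 may belong to those neighbours.

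Promoter windows of 300 bases, from 250 bases before to 50 bases after a RefSeq transcription start (GRCm38.p6), were matched for 6 of the 8 genes, as 9 windows. Those of Adcy5 and Adcy9, which were lower in the NAc after morphine, and the most upstream window of Adcy7, which was higher, are shown because these genes differed in direction in that comparison. Capitals mark the core TGACG of the cyclic AMP response element (CRE), searched on both strands, the sequence to which the cyclic AMP-responsive factor CREB is known to bind.
Adcy5 (chr16:35154614-35154913, plus strand): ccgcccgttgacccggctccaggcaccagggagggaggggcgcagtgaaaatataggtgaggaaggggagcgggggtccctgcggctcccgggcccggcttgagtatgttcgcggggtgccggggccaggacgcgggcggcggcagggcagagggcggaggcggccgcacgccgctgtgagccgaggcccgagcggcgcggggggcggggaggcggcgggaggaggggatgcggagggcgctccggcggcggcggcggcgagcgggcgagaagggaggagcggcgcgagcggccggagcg
Adcy9 (chr16:4420449-4420748, minus strand): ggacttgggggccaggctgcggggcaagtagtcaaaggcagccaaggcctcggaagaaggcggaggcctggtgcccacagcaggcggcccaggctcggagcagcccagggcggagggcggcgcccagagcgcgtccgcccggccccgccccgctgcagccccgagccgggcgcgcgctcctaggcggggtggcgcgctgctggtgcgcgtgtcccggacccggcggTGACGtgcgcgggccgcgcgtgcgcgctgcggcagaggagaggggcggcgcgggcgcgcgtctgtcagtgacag
Adcy7 (chr8:88282742-88283041, plus strand): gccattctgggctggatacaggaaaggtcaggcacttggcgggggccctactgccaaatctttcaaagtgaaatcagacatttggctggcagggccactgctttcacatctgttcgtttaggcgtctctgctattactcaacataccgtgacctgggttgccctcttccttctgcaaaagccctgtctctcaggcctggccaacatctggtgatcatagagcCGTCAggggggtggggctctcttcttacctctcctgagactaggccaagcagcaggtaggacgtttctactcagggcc
The CRE core was found in 2 of the 9 windows, those printed for Adcy9 and Adcy7, where its first base stood 24 and 28 bases before the start, against 20.8% of all 32851 promoter windows of this length. The full element TGACGTCA, which contains the core, was found in 0 of the 9 windows and in 1.79% of all. The GC box GGGCGG, to which Sp factors are known to bind, was found in 6 of the 9 windows and in 35.7% of all, with 4 matches in the Adcy5 window, 5 in that of Adcy9 and 0 in the Adcy7 window shown.

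Reads assigned to genes ranged from 9328726 to 30184426 per library. Vdr was too low to check the genotype, with 0 to 17 reads in every library of both genotypes, whereas each member had far more, from 87 reads (Adcy7, in the NAc) to 30276 (Adcy5). The NAc punches held the markers of medium spiny neurons at 2105 to 4286 summed CPM (counts scaled to a fixed library total) over 10 genes, against 192 to 287 in the VTA punches. The 10 dopamine neuron markers, which define the VTA, were at 2336 to 2895 summed CPM in wild-type PBS punches but at 207 to 562 in wild-type morphine punches, and at 522 to 2210 and 601 to 1173 in Vdr-/- PBS and morphine punches. The labelled VTA samples were thus uneven in their defining cells, and the wild-type morphine punches had the lowest sums. For each library, its log2 deviation from the mean of the other libraries of its region was correlated with exon length across genes. This Spearman correlation was -0.32 in the NAc library of wild-type PBS mouse 2. In the other NAc libraries it was -0.06 to 0.07 after PBS and 0.02 to 0.16 after morphine. In the VTA it was -0.19 to -0.02 in all PBS libraries and 0.00 to 0.12 in all morphine libraries. In bulk tissue, fewer cells of a type and less RNA per cell cannot be told apart.

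To ask which isoforms the regions express, reads were divided by exon length and by the reads on genes (RPKM), a scale on which genes can be compared. Adcy5 stood far above the others in the NAc. In PBS-treated mice it was at 191.1, 199.1 and 171.9 RPKM in the wild type and at 147.7, 146.5 and 166.9 RPKM in Vdr-/- mice, which made up 56.6% to 70.2% of the summed RPKM of the 8 genes. Adcy1 followed at a mean of 35.0 RPKM (range 18.5 to 47.2) and overlapped Adcy2 at 26.1 RPKM (22.9 to 28.4). The lowest Adcy1 value was that of wild-type PBS mouse 2, the library with the strong dependence on exon length, and Adcy1 has the longest exon sequence of the family at 12522 bases. The 6 cortical excitatory neuron markers also varied between punches, at 409 to 1178 summed CPM in the NAc and 8.69 to 178 in the VTA. The part of these cells in the Adcy1 levels of either region was not tested. Next came Adcy9 (16.9 RPKM) and Adcy3 (14.8 RPKM), whose ranges overlapped, and Adcy6 (6.61 RPKM), which overlapped neither of its neighbours. Adcy8 (1.42 RPKM) and Adcy7 (1.03 RPKM) were lowest and overlapped each other.

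In the VTA the family was much more even. In PBS-treated mice Adcy5 was again highest, at a mean of 29.0 RPKM (27.4 to 30.1), but only just above Adcy2 at 24.8 RPKM (23.5 to 27.1). Adcy1 (19.1 RPKM) overlapped Adcy2, Adcy3 (12.7 RPKM) overlapped Adcy9 (10.6 RPKM), and Adcy9 overlapped Adcy6 (10.4 RPKM). Adcy7 (6.31 RPKM) and Adcy8 (5.16 RPKM) were again lowest and overlapped. The share of Adcy5 in the family sum was 23.8% to 26.1%.

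**Figure D1:**
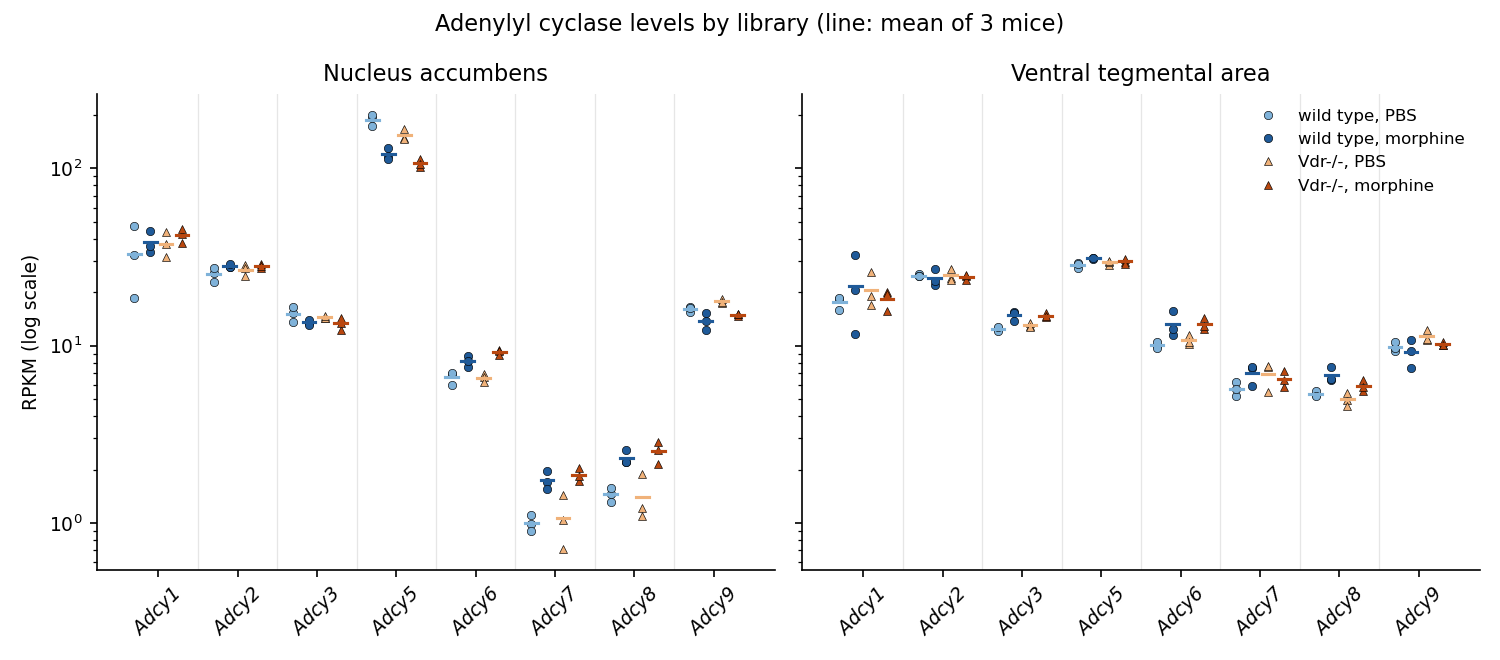
Level of each adenylyl cyclase in each of the 24 libraries, in RPKM on a log axis, for the nucleus accumbens (left) and the ventral tegmental area (right); points are mice, lines are means of 3 mice, and colours and symbols give genotype and injection. Adcy5 lies above the other isoforms in the nucleus accumbens in every library (101.4 to 199.1 RPKM), and the isoforms lie closer together in the ventral tegmental area.

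All 8 members differed between the regions in a fit of all 24 libraries (limma on log2(value + 1), Benjamini-Hochberg adjusted p below 0.05), where 73% of the 16147 genes tested also did, so the count itself sets the family little apart. The sizes did differ among isoforms. Adcy5 was higher in the NAc by 2.28 ± 0.03 on the log2 scale (SE, 12 libraries a region, adjusted p = 3.2e-22), with no overlap between the regions. Adcy1 was higher by 1.01 ± 0.15 (adjusted p = 4.6e-06), Adcy9 by 0.69 ± 0.05 (adjusted p = 1.7e-10), Adcy2 by 0.20 ± 0.04 (adjusted p = 5.8e-05) and Adcy3 by 0.10 ± 0.03 (adjusted p = 0.0057). The regions overlapped for Adcy1, Adcy2 and Adcy3 and did not overlap for Adcy9. The other three were higher in the VTA, without overlap: Adcy7 had a log2 difference of -2.19 ± 0.09 (adjusted p = 1.2e-14), Adcy8 of -1.57 ± 0.07 (adjusted p = 7.0e-14) and Adcy6 of -0.56 ± 0.04 (adjusted p = 2.5e-10).

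Other genes of the pathway differed in both directions. Of 21 G protein subunit genes tested, 9 were higher and 8 lower in the NAc, led by Gng7 (log2 difference 4.02), the gamma subunit that partners with Golf, Gnb5 (1.11) and Gnal (1.66), which encodes Golf alpha. Of 25 receptor genes coupled to cyclases, 18 were higher and 4 lower, among them Drd1 (5.24) and Adora2a (6.16). Of 17 genes of protein kinase A subunits and anchors, 8 were higher and 7 lower, and of 18 other cyclases and cyclase regulators the same numbers were called.

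The isoforms separated after morphine in the NAc. Averaged over both genotypes, 6 of 8 members were called where 24.6% of all genes were. Adcy7, Adcy8 and Adcy6 were higher after morphine, while Adcy5, Adcy9 and Adcy3 were lower. All 6 calls held in each of the 24 fits that left out a library. The NAc group means changed only in the 12 fits that left out a NAc library. The median log2 change was 0.14 over the 8 members and 0.00 over all genes. On the 24-library scale (reads divided by a median-of-ratios size factor), Adcy5 was at 23828, 24242 and 21729 normalised counts in wild-type PBS libraries and at 15564, 14109 and 13887 in wild-type morphine libraries. For Vdr-/- mice the values were 18581, 18256 and 20860 after PBS and 13735, 12343 and 12875 after morphine. Every morphine library lay below every PBS library, in both genotypes. The Adcy5 level fell by 0.62 on the log2 scale (SE 0.04, adjusted p = 4.6e-08, 95% interval -0.71 to -0.53), so it fell by 35.1%.

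Adcy7, which encodes an isoform stimulated by beta-gamma subunits, moved the other way from a low level. It was at 115, 127 and 107 normalised counts in wild-type PBS libraries and at 221, 191 and 178 in wild-type morphine libraries. In Vdr-/- mice it was at 84.3, 168 and 122 after PBS and at 196, 231 and 210 after morphine. The groups did not overlap, and Adcy7 rose by 0.78 ± 0.13 (SE, log2, adjusted p = 2.7e-04).

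Adcy8, which encodes a calcium-stimulated isoform, rose by nearly as much. It was at 205, 219 and 189 normalised counts in the wild type after PBS and at 303, 350 and 308 after morphine. In Vdr-/- mice it was at 172, 268 and 156 after PBS and at 295, 358 and 394 after morphine. No morphine library was as low as any PBS library, and the change was 0.74 ± 0.10 (SE, log2, adjusted p = 5.8e-05). Across the 24 libraries, after subtracting region means, Adcy7 and Adcy8 had a Pearson r of 0.84, while Adcy5 had an r of -0.71 with Adcy7 and -0.72 with Adcy8; these points share the injection groups and libraries, and the values are descriptions.

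Adcy6, the other Gi- and calcium-inhibited isoform, rose by 0.35 ± 0.06 (SE, log2, adjusted p = 4.8e-04), in the opposite direction to Adcy5, to which it is the closest relative in sequence and regulation. Its PBS libraries lay between 6.01 and 6.97 RPKM and its morphine libraries between 7.60 and 9.45 RPKM. Adcy9 fell by 0.28 (SE 0.07, log2, adjusted p = 0.0095), from 15.5 to 18.3 RPKM after PBS to 12.2 to 15.4 RPKM after morphine. Adcy3 fell by 0.18 (SE 0.04, log2, adjusted p = 0.0046), with overlap (13.6 to 16.4 RPKM against 12.3 to 14.3). Adcy1 had a log2 difference of 0.21 (95% interval -0.24 to 0.65, adjusted p = 0.52) and Adcy2 of 0.07 (-0.04 to 0.18, adjusted p = 0.37), and neither was called.

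**Figure D2:**
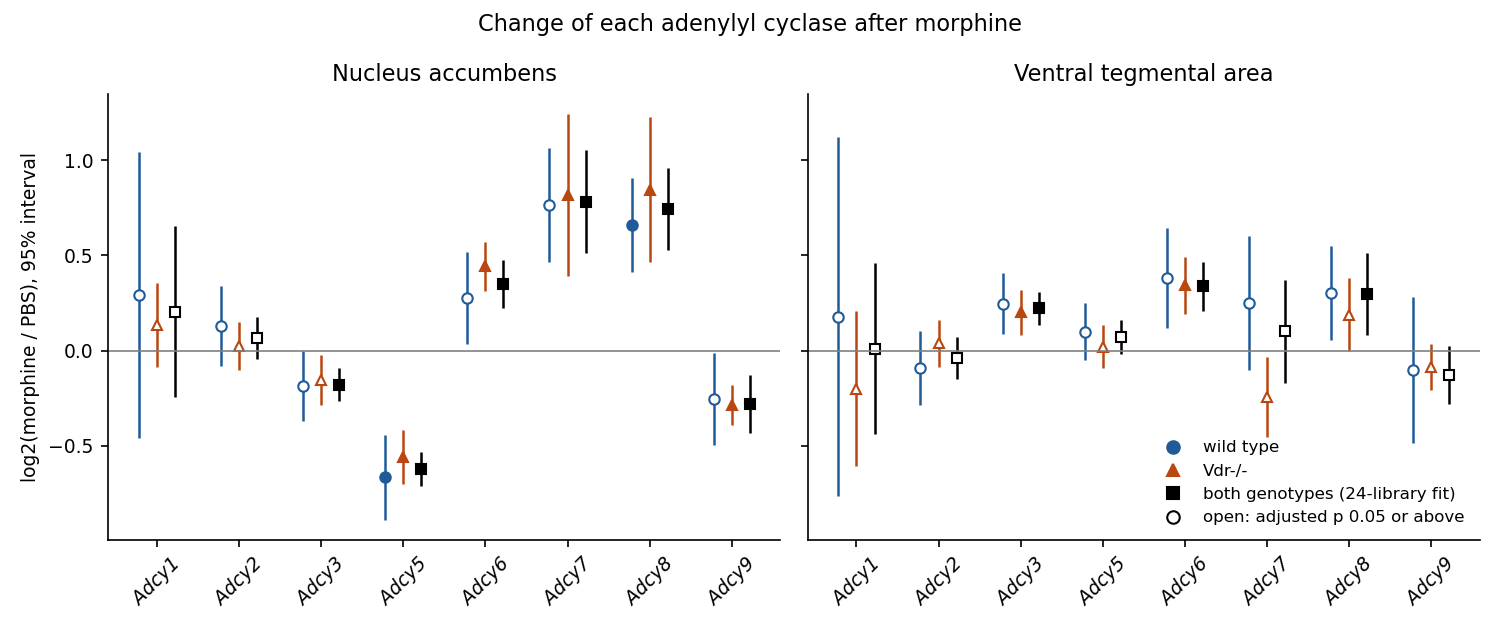
Log2 ratio of morphine to PBS with its 95% interval for each adenylyl cyclase in the nucleus accumbens (left) and ventral tegmental area (right), for wild-type mice, Vdr-/- mice and both genotypes in the 24-library fit; filled symbols have an adjusted p below 0.05. In the nucleus accumbens Adcy5 lies at -0.62 and Adcy7 and Adcy8 at 0.78 and 0.74 over both genotypes, whereas in the ventral tegmental area Adcy5 lies at 0.07 with an open symbol.

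Because Adcy5 makes up so much of the family, the summed level was lower with it in the NAc after morphine. The sum of the 8 genes was 285.6 ± 1.9 RPKM (SD, n = 3) in wild-type PBS mice and 225.9 ± 2.8 after morphine, and 259.3 ± 5.7 and 219.0 ± 4.5 in Vdr-/- mice. The 7 genes other than Adcy5 summed to 98.2 ± 14.7 and 105.8 ± 7.5 RPKM in the wild type and to 105.5 ± 8.1 and 112.0 ± 4.3 in Vdr-/- mice, with overlapping ranges between injections in each genotype. The share of Adcy5 went from 65.6% ± 5.1 to 53.2% ± 3.4 in the wild type and from 59.3% ± 3.5 to 48.8% ± 2.2 in Vdr-/- mice. In the VTA the sum was 114.3 ± 2.0 RPKM in wild-type PBS mice (112.6 to 116.5) and 127.7 ± 8.1 after morphine (120.5 to 136.4), without overlap, and 121.8 ± 5.3 and 123.3 ± 3.2 in Vdr-/- mice, with overlap. Wild-type morphine mouse 1.1 had the highest sum (136.4), with Adcy1 at 32.4 RPKM against 15.9 to 18.5 in wild-type PBS libraries. The 6 thalamus markers summed to 1059 CPM in that library and to 324 and 635 CPM in wild-type morphine mice 1.0 and 1.2. Wild-type PBS libraries were at 319 to 417 CPM and Vdr-/- libraries at 335 to 768 CPM. The part of the tissue punched in these sums was not tested.

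**Figure D3:**
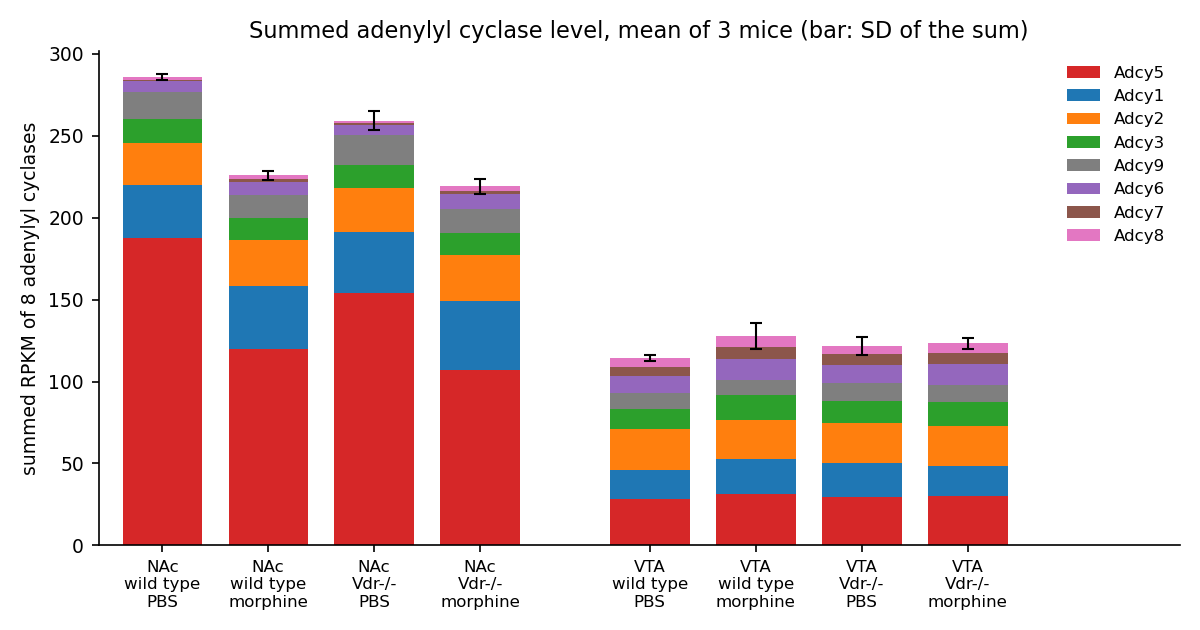
Summed RPKM of the 8 adenylyl cyclases by region (NAc, nucleus accumbens; VTA, ventral tegmental area), genotype and injection, split by isoform; bars are means of 3 mice and the error bar is the SD of the sum. In the nucleus accumbens the sum is 285.6 RPKM after PBS and 225.9 after morphine in wild-type mice and 259.3 and 219.0 in Vdr-/- mice, and the Adcy5 segment differs most.

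Markers of cell types moved with these changes. In the NAc, 8 of 10 medium spiny neuron markers were lower after morphine over both genotypes, with a median log2 change of -0.58 over the list, close to that of Adcy5, and none of the 10 was at 0. Their summed level was 3467 to 4286 CPM in wild-type PBS libraries against 2291 to 2940 after morphine, and 3115 to 3603 against 2105 to 2433 in Vdr-/- mice. The log2 level of Adcy5 minus the mean log2 level of the 10 markers was 2.06 to 2.18 and 1.92 to 2.21 in wild-type PBS and morphine libraries, and 2.06 to 2.09 and 2.03 to 2.08 in Vdr-/- libraries, so that ratio overlapped between injections in each genotype. The 3 genes most like Adcy5 over the 24 libraries within regions were Syndig1l (r = 0.95), Pde1b (r = 0.95), which encodes a calmodulin-dependent phosphodiesterase and Rasgrp2 (r = 0.94).

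**Figure D4:**
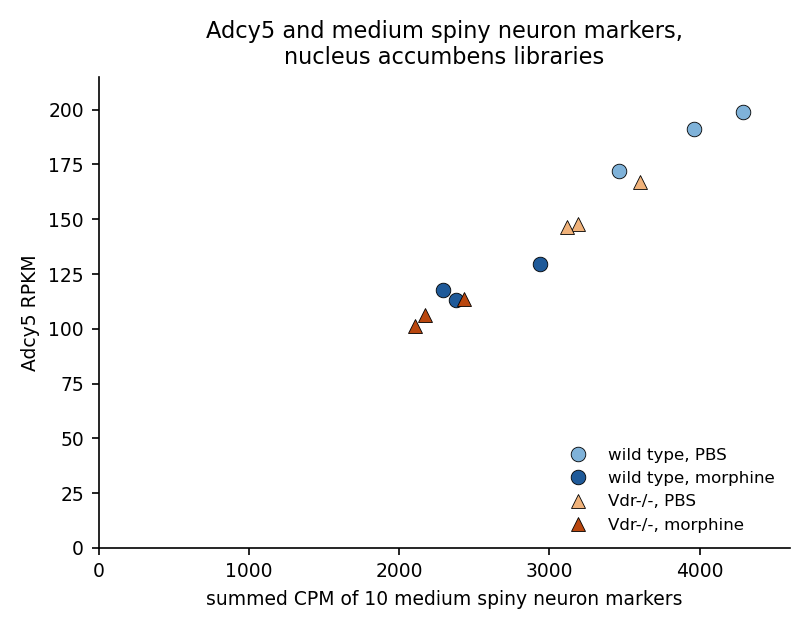
Adcy5 in RPKM against the summed CPM of 10 medium spiny neuron markers in the 12 nucleus accumbens libraries; colours and symbols give genotype and injection, and both axes start at 0. Morphine libraries (101.4 to 129.4 RPKM) lie at lower marker sums than PBS libraries (146.5 to 199.1 RPKM).

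The other members had other closest genes among the 11450 compared. They were Ptpn4 for Adcy1 (r = 0.88), Fam19a1 for Adcy2 (r = 0.78), Tusc3 for Adcy3 (r = 0.87), Tmem108 for Adcy6 (r = 0.92), Btbd11 for Adcy8 (r = 0.92) and Klf9, a stress-hormone-responsive transcription factor gene, for Adcy9 (r = 0.88). All these correlations share the libraries and injection groups and are descriptions.

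Astrocyte markers went the other way in the NAc, with 6 of 7 higher after morphine (median log2 change 0.29; summed level 881 to 979 CPM after PBS and 1089 to 1241 after morphine). Microglia markers were lower for 7 of 9 (median -0.32; 269 to 322 CPM after PBS and 223 to 248 after morphine), although Adcy7, a gene known from immune cells, rose. Of the oligodendrocyte markers 3 of 8 were lower (median -0.27). Markers of the thalamus and of the choroid plexus had 1 called gene each, higher after morphine, and their summed levels did not overlap (90.7 to 139 CPM after PBS against 140 to 183 after morphine, and 8.20 to 12.2 against 13.6 to 17.9). The log2 level of Adcy7 minus the mean of the microglia markers was -1.96 to -1.01 in all NAc PBS libraries and -0.53 to -0.21 in all NAc morphine libraries. The 3 genes most like Adcy7 were Ubap1l (r = 0.91), Htr7 (r = 0.90), which encodes a Gs-coupled serotonin receptor, and Crim1 (r = 0.90). With adjustment for exon length the same 6 members were called in the NAc over both genotypes, with Adcy5 at -0.66, Adcy7 at 0.75 and Adcy8 at 0.69. The part of the cell types in the changes of the members was not tested.

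Within the genotypes, the 3 against 3 comparisons of the deposited tables gave the same directions with fewer calls. In wild-type NAc 2 members were called, against 0.813% of all genes: Adcy5 (log2 change -0.67 ± 0.10, adjusted p = 0.037) and Adcy8 (0.66 ± 0.11, adjusted p = 0.044). Adcy7 had a log2 difference of 0.77 ± 0.13 and an adjusted p of 0.0503. Leaving out any of PBS mice 1 and 3 or morphine mice 1.0, 1.1 and 1.2 left 0 members called, whereas leaving out PBS mouse 2 gave 3, and the log2 change of Adcy5 stayed between -0.72 and -0.63. In Vdr-/- NAc 5 members were called, against 19.1% of all genes. Adcy5 fell by 0.56 (SE 0.07, log2, adjusted p = 3.3e-04) and Adcy9 by 0.29 (SE 0.05, adjusted p = 0.0023). Adcy6 rose by 0.44 ± 0.06 (adjusted p = 7.3e-04), Adcy8 by 0.85 ± 0.17 (adjusted p = 0.0068) and Adcy7 by 0.82 ± 0.20 (adjusted p = 0.014). Without morphine mouse 2.1, Adcy7 was at 0.76 with an adjusted p of 0.068.

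The wild-type and Vdr-/- responses were then compared directly. For the interaction of genotype and morphine in the NAc, 0 members were called by limma, edgeR or DESeq2, 0 had an unadjusted p below 0.05, and 0% of all genes were called. The 95% interval of the Adcy5 interaction was -0.15 to 0.36 on the log2 scale, and that of Adcy7 was -0.55 to 0.65. With 3 mice a group, interactions of the sizes within these intervals remain possible. In the VTA 0 members were called by any of the 3 tools against 0.0553% of all genes, and 1 had an unadjusted p below 0.05. That member was Adcy7 (named after its value was seen), with a log2 interaction of -0.49 (95% interval -0.92 to -0.07, adjusted p = 0.35).

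In the VTA fewer isoforms were called after morphine. Over both genotypes these were 3 of 8 members, Adcy3, Adcy6 and Adcy8, all higher, against 28% of all genes, and all 3 had also been called in the NAc, Adcy3 there in the lower direction. Adcy6 rose by 0.34 ± 0.06 (SE, log2, adjusted p = 5.4e-04): it was at 1115, 1091 and 1166 normalised counts in wild-type PBS libraries and at 1683, 1304 and 1410 after morphine, and at 1136, 1274 and 1141 against 1377, 1562 and 1431 in Vdr-/- mice. Adcy3 rose by 0.22 ± 0.04 (SE, log2, adjusted p = 7.7e-04), from 1255 to 1366 normalised counts over the 6 PBS libraries to 1440 to 1605 over the 6 morphine libraries. Neither gene overlapped between the injections. Adcy8 rose by 0.30 ± 0.10 (adjusted p = 0.037), with overlap, and this call was lost in 8 of the 24 fits that left out a library each. The VTA libraries concerned were those of wild-type PBS mice 1 and 3, wild-type morphine mice 1.1 and 1.2, Vdr-/- PBS mice 7 and 8, and Vdr-/- morphine mice 2.0 and 2.2, with adjusted p-values of 0.055 to 0.086. The VTA group means changed only in the 12 fits that left out a VTA library. Adcy5 had a log2 difference of 0.07 (95% interval -0.02 to 0.16, adjusted p = 0.24).

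Beside these values, 8 of 10 dopamine neuron markers (median log2 change -1.66), 8 of 8 oligodendrocyte markers (median -0.64) and 9 of 9 microglia markers (median -0.68) were lower in the VTA after morphine. Of the medium spiny neuron markers, 5 of 10 were higher and 2 lower, at summed levels of 192 to 287 CPM. The part of these cell types in the changes of the members was not tested. With adjustment for exon length, Adcy3 and Adcy6 were called and Adcy8 had an adjusted p of 0.066. In Vdr-/- mice, whose PBS and morphine punches overlapped in the dopamine neuron sum, 2 members were called against 10% of all genes, Adcy6 (0.34 ± 0.06, adjusted p = 0.023) and Adcy3 (0.20 ± 0.05, adjusted p = 0.048). The deposited values for this comparison held PBS mice 7 and 9 alone, whereas the 24-library fit held mouse 8 too. The Adcy3 call was lost whichever of the 5 libraries was left out (adjusted p = 0.070 to 0.21), and the Adcy6 call was lost without PBS mouse 7 (0.16), PBS mouse 9 (0.093) or morphine mouse 2.2 (0.077). Adding the reads of PBS mouse 8 left 1 member called. In the wild type, with PBS mice 1 and 2 alone, 0 members were called by limma, edgeR or DESeq2, against 3.65% of all genes, and 3 had an unadjusted p below 0.05. Leaving out morphine mouse 1.1 gave 2, and adding the reads of PBS mouse 3 gave 3 (Adcy3, Adcy6 and Adcy8).

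The difference between the regions in the response to morphine was tested in the 24-library fit. It was called for 4 members, against 13.1% of all genes. The log2 change in the NAc minus that in the VTA was -0.69 ± 0.06 for Adcy5 (adjusted p = 5.2e-06), -0.40 ± 0.06 for Adcy3 (adjusted p = 2.7e-04), 0.68 ± 0.18 for Adcy7 (adjusted p = 0.018) and 0.45 ± 0.15 for Adcy8 (adjusted p = 0.048). Adcy3 thus fell in the NAc and rose in the VTA. Adcy6 rose in both, with a log2 difference between regions of 0.01 (SE 0.09, adjusted p = 0.95). Cell type markers also differed after morphine in both regions, and their part in these differences between regions was not tested. With the mouse as a block in the model, 2 members were called, Adcy5 and Adcy3, while Adcy7 and Adcy8 had adjusted p-values of 0.058 and 0.074. The mouse was fitted both as a random block and as a fixed term. The values given are from a single block model and do not stand for both. Leaving out single libraries kept Adcy8 called in 6 of 24 fits. These left out NAc wild-type PBS mouse 2, Vdr-/- PBS mouse 8 or Vdr-/- morphine mouse 2.0, or VTA Vdr-/- PBS mouse 8, Vdr-/- morphine mouse 2.0 or wild-type morphine mouse 1.1, and in the others its adjusted p reached 0.091.

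Genes up- and downstream of the cyclases were also called after morphine, where 24.6% of all genes were called in the NAc and 28% in the VTA. Drd1, Drd2, Adora2a and Ppp1r1b belong to the medium spiny neuron markers as well, so these lists are not independent of that one. In the NAc 4 of 21 G protein subunit genes rose and 7 fell, with Gnb5 at -0.34, Gng7 at -0.56 and Gnas, which encodes Gs alpha, at 0.36 on the log2 scale. Of 25 receptor genes 3 rose and 12 fell, among them Adora2a (-0.98) and Drd1 (-0.60), while Adcyap1r1, the receptor gene for the peptide PACAP, rose (0.31). Of 18 other cyclases and regulators 3 rose and 7 fell, with Ppp1r1b, which encodes the protein kinase A target DARPP-32, at -0.85, Rapgef4, which encodes the cyclic AMP sensor EPAC2, at -0.40, and the calmodulin gene Calm2 at -0.20. Of 17 genes for protein kinase A subunits and anchors 4 rose and 2 fell, with Akap12 at 0.51, Prkar2a at 0.29 and Pkib at 0.54. The median log2 changes of the lists were 0.03, -0.25, -0.07 and 0.06 in this order.

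In the VTA, 8 of 17 protein kinase A genes rose and 1 fell (median 0.17), with Prkacb, a catalytic subunit gene, at 0.28, the inhibitor gene Pkia at 0.35 and Prkar2a at 0.24. Of the receptors 7 rose and 2 fell (median 0.19), with Drd1 at 0.82 and Drd2, which is also a dopamine neuron autoreceptor, at -0.96. Of the G protein subunit genes 3 rose and 1 fell, with Gng2 at 0.39, Gng4 at 0.36 and Gng11 at -0.74. Of the other cyclases and regulators 4 rose and 3 fell, with Rapgef4 at -0.50, Calm2 at 0.24 and Hcn2, a cyclic nucleotide-gated channel gene, at -0.47. The 2 remaining cyclase genes, Adcy4 and Adcy10, had 46 to 163 and 0 to 7 reads per library.

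Loss of Vdr went with few differences in the family. In the 4 comparisons within a region and an injection, 0 members were called by limma, edgeR or DESeq2. The shares of all genes called were 0.069% in the NAc after PBS, 0.192% in the NAc after morphine, 0.39% in the VTA after PBS and 0.0624% in the VTA after morphine, and 1, 2, 1 and 0 members had an unadjusted p below 0.05. Adcy5 in the NAc had log2 differences of -0.26 after PBS (95% interval -0.49 to -0.04, adjusted p = 0.51) and -0.16 after morphine (-0.30 to -0.02, adjusted p = 0.60). Of the pathway lists, Akap9, which encodes a kinase anchor, and Rapgef4 were called in the NAc after morphine, at -0.32 ± 0.05 (SE, adjusted p = 0.041) and -0.35 ± 0.06 (adjusted p = 0.044), and no list gene was called in the other three comparisons.

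Averaged over both injections, 1 member was called in the NAc, against 0.756% of all genes. Adcy5 was lower in Vdr-/- mice, with a log2 difference of -0.22 ± 0.04 (SE, adjusted p = 0.017, 95% interval -0.31 to -0.13), which is -14.0%. In normalised counts the 3 Vdr-/- PBS libraries (18256 to 20860) lay below the 3 wild-type PBS libraries (21729 to 24242), and the Vdr-/- morphine libraries (12343 to 13735) lay below the wild-type morphine libraries (13887 to 15564) by a small margin. In RPKM the morphine libraries overlapped (101.4 to 113.4 against 113.3 to 129.4). The SE of the Adcy5 call rests on a single spread estimated over all 24 libraries, VTA included. In the NAc comparisons within an injection, the SE for Adcy5 was 0.10 after PBS and 0.06 after morphine, and neither difference was called. The call was lost in 4 of 24 fits that left out a library, namely NAc Vdr-/- PBS mouse 7 or 8, Vdr-/- morphine mouse 2.1 or wild-type morphine mouse 1.0, with adjusted p-values up to 0.065. Group means of the NAc changed only in the 12 fits that left out a NAc library. The medium spiny neuron markers had a median log2 difference of -0.20 in this comparison, with all 10 below 0 and none called. All 8 oligodendrocyte markers were also below 0 (median -0.24) and all 6 cortical excitatory neuron markers above 0 (median 0.34), with none called, and the part of these cell types was not tested. The log2 level of Adcy5 minus that of the markers overlapped between the genotypes within each injection.

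In the VTA, 0 members were called over both injections by limma, edgeR or DESeq2, against 0.787% of all genes, and 1 had an unadjusted p below 0.05. Adcy5 there had a log2 difference of -0.02 (95% interval -0.11 to 0.07). The genotype difference did not differ between regions for any member at the threshold: 0 were called by the 3 tools, against 0.00619% of all genes, and 1 had an unadjusted p below 0.05, Adcy5 with a log2 difference between regions of -0.20 ± 0.06 (adjusted p = 0.93). Of the pathway lists, 1 gene was called by genotype over both injections, Rapgef4 in the NAc (-0.34 ± 0.08, adjusted p = 0.035).

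Adcy6 lies closest to the deleted gene among the members, so genes around Vdr are given beside it. Within 2 Mb of Vdr, 62 genes were tested in each region, and over both injections 7 were called by genotype in the NAc and 5 in the VTA. Those with the lowest adjusted p were Tuba1c (log2 difference 5.39 in the NAc and 5.53 in the VTA), the olfactory receptor gene Olfr286 (-4.40 and -2.54), and Col2a1 in the NAc (-1.81) or Tuba1b in the VTA (-0.54). Tuba1c and Tuba1b are near-identical tubulin genes, so the assignment of reads to each, and with it their values, is uncertain. Adcy6 was not called in either region, with a log2 difference of 0.09 (95% interval -0.04 to 0.22, adjusted p = 0.57) in the NAc and 0.04 (-0.09 to 0.16, adjusted p = 0.90) in the VTA. Adcy8, on the same chromosome at 32.9 Mb from Vdr, had 0.02 (-0.20 to 0.23) and -0.17 (-0.38 to 0.05).

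**Figure D5:**
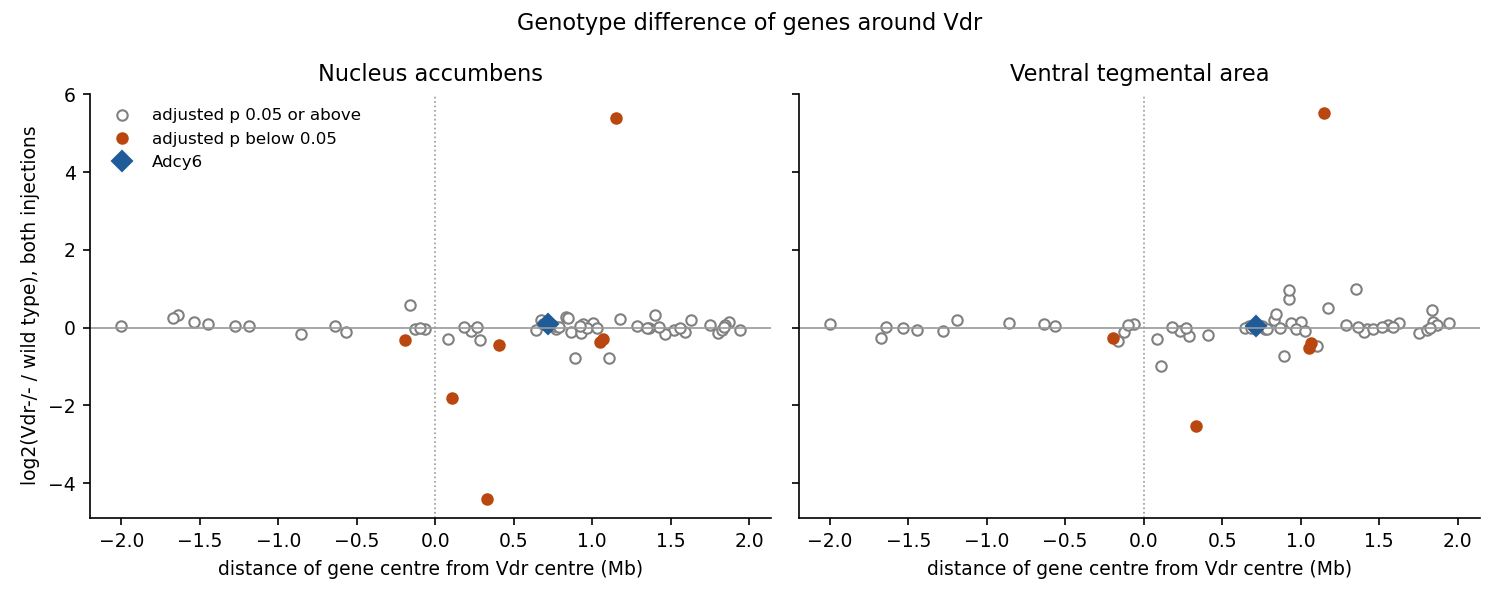
Log2 ratio of Vdr-/- to wild type over both injections for genes within 2 Mb of Vdr, against the distance of the gene's centre from that of Vdr in Mb, in the nucleus accumbens (left) and ventral tegmental area (right); filled circles have an adjusted p below 0.05. Adcy6 (diamond) lies at 0.09 and 0.04, near 0, while Tuba1c lies at 5.39 and 5.53.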

How the data were processed

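RNA selected for high integrity was made into directional mRNA libraries and sequenced as paired ends. Per the labels and the study's methods, the authors trimmed reads with Trimmomatic 0.36, aligned them with STAR 2.4.2a to GENCODE mouse genes and counted reads per gene. The submitters' processing notes also name CASAVA 1.8. The deposited values are signal on a normalized-count scale (reads divided by a DESeq2 size factor per table), in 8 tables of 46 library columns. Whole reads were recovered for 100% of values (tolerance 0.01), and 22 libraries occurring in 2 tables had identical reads. Identifiers matched GENCODE M21 (GRCm38) for 30204 of 30270.

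Table comparisons used the deposited values of 2 groups. Contrasts over regions, genotypes or injections used recovered reads divided by median-of-ratios size factors over 24 libraries. For these, a single spread per gene was estimated over all 24 libraries. Contrasts within a region thus also draw on the spread in the other region. Genes with a mean of at least 10 entered limma 3.58.1 as log2(value + 1) (trend, two-sided, Benjamini-Hochberg over all genes, threshold 0.05) in R 4.3.3. Fold changes of low genes are understated on this scale. For morphine against PBS in the VTA, a table has 5 libraries (PBS mouse 3 of the wild type and 8 of Vdr-/- are absent). Alternatives were edgeR 4.0.16 and DESeq2 1.42.0 on recovered reads, pseudocount 5, no filter or a mean of at least 50, no trend, exon length adjustment, all PBS mice, a replicate block and leaving out each library. The mouse was a random block in all contrasts of the 24-library fit. It was also a fixed term in the contrasts between regions. The labels give both regions of a mouse the same number, which was taken as the same animal. Deviations from group means correlated at -0.067 to 0.168 between the 2 regions of a mouse. No source says more about how mice were kept apart, so p-values measure the spread between these samples.

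All members were named. From 4 pathway lists at most the 3 called genes of lowest adjusted p per comparison were named, as were the 3 genes most correlated with a member and the 3 genes of lowest adjusted p near Vdr. Members and lists were chosen with earlier results of these data known. RPKM used union exon length.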

Additional observations from a re-analysis of the deposited data

Results flagged for a closer look

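The response to morphine differed between the NAc and the VTA by a test of the difference itself for 4 members. The log2 change in the NAc minus that in the VTA was -0.69 for Adcy5, -0.40 for Adcy3, 0.68 for Adcy7 and 0.45 for Adcy8. The regions share mouse numbers, which were taken as the same animals. In a single model with the mouse as a block, Adcy5 and Adcy3 were called, whereas Adcy7 (adjusted p = 0.058) and Adcy8 (adjusted p = 0.074) were not. Without the block, Adcy8 kept its call in 6 of 24 fits that left out a library. For Adcy3 the changes of the regions had opposite signs. Marker content differed as well. Dopamine neuron markers summed to 2336 to 2895 CPM after PBS and 207 to 562 after morphine in wild-type VTA, but overlapped in Vdr-/- mice. Medium spiny neuron markers in the NAc were lower after morphine in both genotypes. The part of these cells in the differences between regions was not tested. Groups of 3 mice were too small to be screened for single outlying samples.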

How the results depend on the processing

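Over 17 comparisons, 344 of 368 recomputed counts of called members stayed within 1.5 times the reported count, and no member with a call reversed direction. In wild-type NAc after morphine (2 called), 0 were called without the variance trend and 1 with exon length adjustment, and leaving out single libraries gave 0 to 3. In Vdr-/- NAc (5 called), 3 were called without the trend. In the wild-type VTA (0 called), all 3 PBS mice gave 3, and leaving out libraries gave 0 to 2. In the Vdr-/- VTA (2 called), 1 was called with DESeq2, without a filter, with exon length adjustment and with all 3 PBS mice, 0 without the trend, and 0 to 2 when libraries were left out. For Vdr-/- against wild type over both injections in the NAc (1 called), leaving out libraries gave 0 to 1. The causes were not tested.

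In a single model with the mouse as a replicate block, 2 members were called for the region by morphine difference, against 4 without it. A block could not be used in comparisons whose libraries all came from a single region, where each mouse gave 1 library. In the fit of both regions together, the mouse was a random block in all contrasts, including those within a region. With 3 mice a group, small differences in Adcy1, which varied most between mice, and in Adcy7 and Adcy8 in the NAc, which had the lowest counts, were least detectable.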
